A study of Mus musculus with 6 samples.

Results

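Type I interferon stimulated genes were examined in activated CD4 T cells of miR-155 knockout (KO) and wild-type (WT) mice. They are genes whose transcripts rise when a cell senses type I interferon, and 35 of them were listed by symbol: sensors of viral nucleic acid, antiviral effectors, proteins of the ISG15 and ubiquitin system, signalling proteins, and further induced genes of less settled role. Of the 35, 29 had probe sets that the array's annotation gave to that gene alone, 43 probe sets in all, out of 12393 genes with 20380 such probe sets in the series. Ddx58, Ifi44, Xaf1 and Ifi27 had no probe set under their symbol in the annotation used and were not analysed here, and Isg15 and Ifi203 were listed only on probe sets shared with other genes and were left out. The dimmest 25% of genes were kept out of the test, which removed Oasl2 and Ifi204 and left 27 members among 9294 tested genes.

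The cells of all 6 arrays were of strain C57BL/6, were drawn from spleen and lymph nodes with CD4 magnetic beads, and were stimulated through CD3 and CD28 (antibodies, 1 µg/mL) in medium that held 20 U/mL of IL-2, a T cell growth factor, for 3 days. The labels name no added interferon. The knockout is a germline deletion, so other cells of the mouse lacked miR-155 too. Each genotype had 3 arrays, and the series description gives each array to its own mouse. Values are the authors' log2 levels, on which a difference of 1 is a doubling. All differences are KO minus WT.

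MiR-155-5p is the strand that guides silencing, and it is shown because its absence separates the genotypes. Its sequence in RefSeq (GRCm38.p6, chr16:84714143-84714165, plus strand) has the seed, bases 2 to 8, in capitals.
mmu-miR-155-5p: uUAAUGCUaauugugauaggggu

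Type I interferons bind the receptor of Ifnar1 and Ifnar2, whose kinases Jak1 and Tyk2 activate STAT proteins. STAT2, a partner STAT and IRF9 form the factor ISGF3, which binds interferon-stimulated response elements in the promoters of these genes. Many of the same genes also respond to interferon gamma, which activated T cells make themselves, and to sensors of nucleic acid inside the cell. Negative feedback runs through Usp18 and the SOCS proteins.

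The core of the response element, GAAA and GAAA with any 2 bases between them, was searched on both strands of RefSeq promoters (GRCm38.p6, 250 bases before to 50 after the start), overlapping matches being joined. A promoter was in the table for 25 of the 35 genes, and 13 of those 25 (52.0%) held the element, against 1079 of 27025 genes (3.99%). The elements below are shown because their genes have the values on which the results turn: Ifit1, Ifit3, Rsad2 and Oas1a were highest on both replicate 1 arrays, Ifih1 differed most between genotypes, Bst2 was among the lower members and Stat2 among the higher ones. Each is printed along its gene with 6 bases on each side and the element in capitals. TTTC and TTTC with 2 bases between is the same core on the other strand.
Ifit1, chr19:34640779-34640800, plus strand: cttcagTTTCACTTTCcagtct
Ifit1, chr19:34640798-34640819, plus strand: tctcagTTTCAGTTTCtcactg
Ifit3, chr19:34583367-34583388, plus strand: ggtaagTTTCACTTTCctcttc
Ifit3, chr19:34583401-34583422, plus strand: agtctgTTTCAGTTTCtacttt
Rsad2, chr12:26456557-26456578, minus strand: tccaacTTTCATTTTCagaaaa
Oas1a, chr5:120907524-120907551, minus strand: tctcggGAAATGGAAACTGAAAatctac
Ifih1, chr2:62646208-62646229, minus strand: agaatcGAAACAGAAAccgatc
Bst2, chr8:71537581-71537608, minus strand: ttccagGAAAATGAAACTGAAAggctgc
Stat2, chr10:128270270-128270291, plus strand: ccctggTTTCAGTTTCctttcc
Counted from the start, with negative values upstream, the elements of Ifit1 began at -104 and -85, those of Ifit3 at -156 and -122, that of Rsad2 at -120, that of Oas1a at -20, that of Bst2 at -130 and that of Stat2 at -222. The element of Ifih1 began at 33, within the transcript. Mx1, Mx2, Oas2, Usp18, Rtp4, Dhx58, Zbp1, Parp14, Ifi204 and Ifi27 had no entry in the promoter table.

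Before the results, the arrays themselves were compared. Array medians lay between 6.45 and 6.49. KO replicate 1 stood apart in 1 sign of RNA quality, the 3' minus 5' control difference of the transferrin receptor Tfrc, which was 3.55 there and 1.21 to 2.18 on the other arrays, but not in that of Actb, which was 0.28 to 0.37 on all arrays. It was the highest array in 25.8% of tested genes, but WT replicate 1 was so in 23.4%, and the other arrays in 7.76% to 16.7%. Mir155hg, the host transcript of miR-155, was at 3.51, 3.89 and 4.45 on the KO arrays and at 7.69, 6.59 and 8.21 on the WT arrays, on the side each label gives, although the extent of the deletion in this transcript is not stated in the labels. Cd3d, Cd3e and Cd4, which define the labelled cell type, were at 8.83 or above on every array. The replicates were not alike in sex-linked transcripts. Xist was at 13.35 and 13.08 on the replicate 1 arrays, at 5.94 and 5.66 on the replicate 2 arrays and at 12.59 and 12.64 on the replicate 3 arrays, naming KO first. Y-linked Eif2s3y was at 3.50 and 3.44, at 10.41 and 10.51, and at 10.05 and 10.21 in the same order. Both replicate 3 arrays thus carried both transcripts, and whether each held RNA of a single mouse is uncertain. If arrays hold pooled or mixed cells, p-values measure only the spread between these arrays.

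As a group, the interferon-stimulated genes showed no common difference between KO and WT. Of the 27 tested members 13 were higher and 14 lower in KO, and the median difference was -0.00062, beside -0.0036 over all 9294 genes. With limma, a linear model with moderated variances, and Benjamini-Hochberg adjustment over all tested genes, 0 members had an adjusted p under 0.05, as had 0% of all genes. At an unadjusted p under 0.05, 2 of 27 members (7.41%) passed, where 691 of 9294 genes (7.43%) passed. Mx1 was the 1 higher in KO (3.57% of all genes were) and Ifih1 the 1 lower (3.86% of all genes were). KO and WT arrays did not overlap in 4 members (14.8%), against 12.8% of all genes: Mx1, Isg20 and Stat2 were higher in KO (5.86% of all genes were) and Ifih1 lower (6.92%). Both member shares were near the background. The call of no member depends on how the arrays are weighted: with limma's array weights 7 of 27 members (25.9%) and 38.5% of all genes had an adjusted p under 0.05, but KO replicate 3 then held 87.5% of the KO weight and WT replicate 2 held 83.2% of the WT weight, so that fit came close to setting a single array against another.

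**Figure D1:**
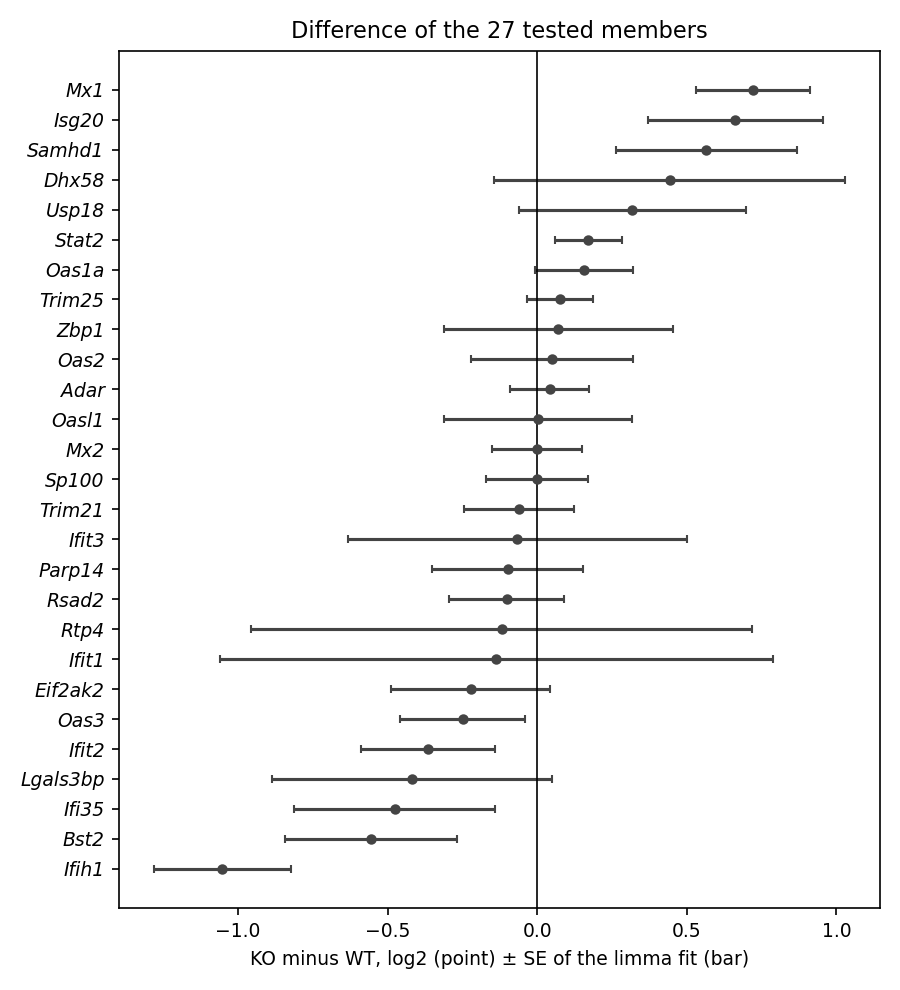
KO minus WT difference on the log2 scale for each of the 27 tested members (points) with the standard error of the limma fit (bars), ordered by size. Ifih1 at -1.05 and Mx1 at 0.72 are the ends of the row, and most of the others have bars that reach 0.

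Among the sensors of nucleic acid, Ifih1 was lower in KO. It encodes MDA5, which binds long double-stranded RNA in the cytosol. Ifih1 was at 7.50, 8.27 and 8.17 on the KO arrays and at 9.08, 9.20 and 8.82 on the WT arrays. Every KO array lay below every WT array, with a gap of 0.55. The means were 7.98 ± 0.42 and 9.03 ± 0.19 (SD, n = 3), a difference of -1.05 ± 0.23 (SE), or 2.07-fold, with a limma unadjusted p of 0.00291, the 24th smallest of 9294, and an adjusted p of 0.631. An exact two-sided permutation test gave p = 0.1, its minimum with 3 arrays a group. With each array left out in turn the difference stayed between -1.20 and -0.81.

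In the other tested sensors the KO and WT arrays overlapped. Dhx58 encodes LGP2, which modulates MDA5 and RIG-I, and was at 9.94, 7.43 and 8.69 on the KO arrays and at 8.14, 8.05 and 8.55 on the WT arrays. KO replicates 1 and 2 were the highest and the lowest of the 6, 2.51 apart, so the groups overlapped. The difference was 0.44 ± 0.59 (SE; limma unadjusted p of 0.476). It was -0.18 without KO replicate 1, the array apart in the Tfrc control, and 1.07 without KO replicate 2. Its dimmer probe sets differed by 0.36 and 0.01. Zbp1, a sensor of Z-form nucleic acid that can start cell death, was at 8.41, 9.41 and 8.58 in KO and at 8.74, 9.35 and 8.09 in WT. Both replicate 2 arrays were the highest, and the difference was 0.07 ± 0.38 (SE).

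**Figure D2:**
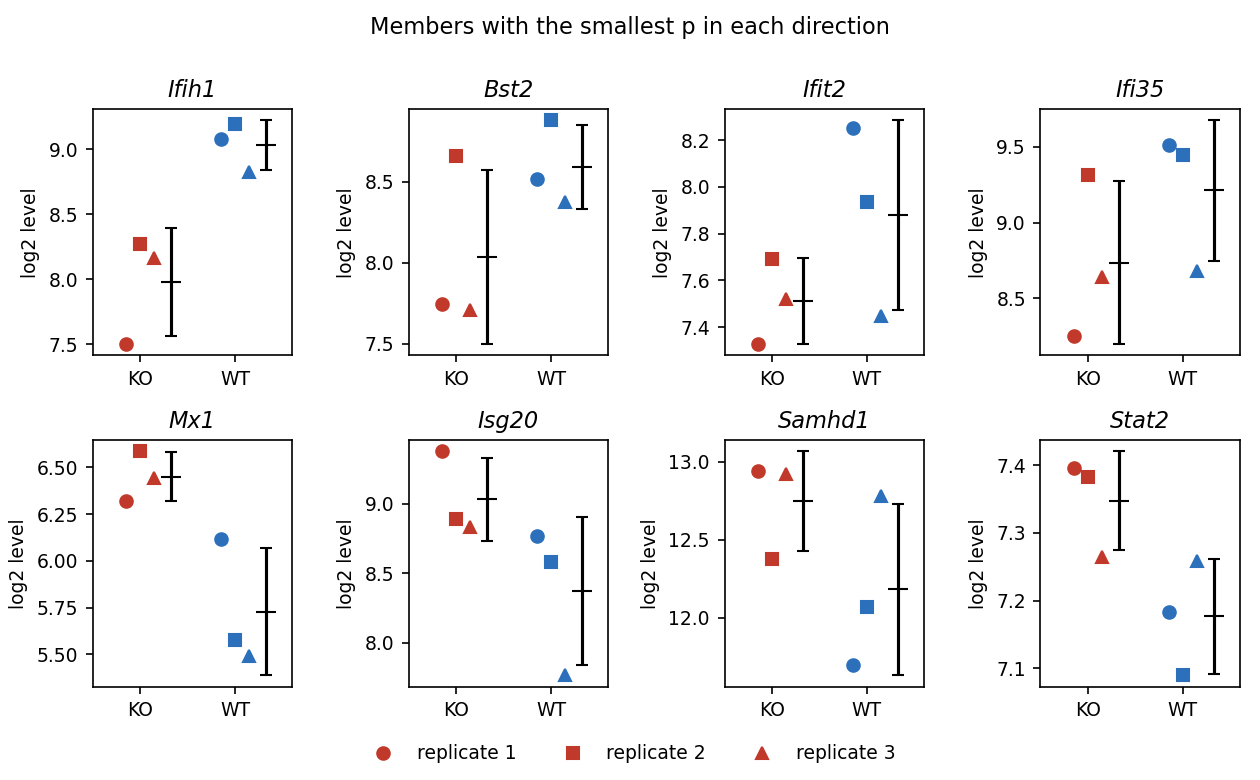
Log2 level of the 4 tested members with the smallest p on the lower side (top) and on the higher side (bottom), a symbol for each replicate number, with the mean and SD of 3 arrays (black). The groups are apart in Ifih1, Mx1, Isg20 and Stat2 and overlap in Bst2, Ifit2, Ifi35 and Samhd1.

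Of the antiviral effectors, Mx1 was the member highest in KO relative to WT. Mx proteins are GTPases that block viral replication, and C57BL/6 mice carry a defective Mx1 allele. Mx1 was at 6.32, 6.58 and 6.44 on the KO arrays and at 6.12, 5.58 and 5.49 on the WT arrays, with WT replicate 1 closest to KO. The means were 6.45 ± 0.13 and 5.73 ± 0.34 (SD, n = 3), a difference of 0.72 ± 0.19 (SE), or 1.65-fold, with a limma unadjusted p of 0.00786, an adjusted p of 0.631 and an exact permutation p of 0.1. Without each array in turn it lay between 0.60 and 0.92. Its neighbour Mx2 was at 5.93, 5.66 and 5.76 in KO and at 5.72, 5.61 and 6.02 in WT, a difference of 0.00015 ± 0.15 (SE). In RefSeq both Mx genes, Rtp4 and Parp14 lie on chromosome 16, as Mir155 does. Of 57 tested genes between Mir155 and Mx1, 7 (12.3%) had an unadjusted limma p under 0.05, against 7.43% of all genes, and 3 of the 7 were higher in KO. KO and WT arrays did not overlap in 12 of the 57, a larger share than over all genes (1188 of 9294, 12.8%). The median difference of the 57 was -0.060, and a part of the chromosome in the Mx1 difference was not tested.

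Isg20, an exonuclease of single-stranded RNA, was also higher in KO. It was at 9.38, 8.89 and 8.83 on the KO arrays and at 8.77, 8.58 and 7.76 on the WT arrays. The groups did not overlap, but the gap between the lowest KO and the highest WT array was 0.06. The difference of 0.66 ± 0.29 (SE) had a limma unadjusted p of 0.0598, and without WT replicate 3, the lowest array, it was 0.36. Samhd1, which depletes nucleotides needed for reverse transcription, was at 12.94, 12.38 and 12.92 in KO and at 11.69, 12.07 and 12.78 in WT. WT replicate 3 lay among the KO arrays, the difference was 0.57 ± 0.30 (SE; limma unadjusted p of 0.107), and it was 0.32 without WT replicate 1 and 0.87 without WT replicate 3. The other 3 Samhd1 probe sets differed by 0.58, 0.96 and 0.92, all with the same sign, and 1 of them had KO arrays above all WT arrays.

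Bst2 and Ifit2 had lower means in KO. Bst2 encodes tetherin, which holds budding virus at the cell surface. It was at 7.74, 8.66 and 7.71 on the KO arrays and at 8.51, 8.88 and 8.38 on the WT arrays. KO replicate 2 lay among the WT arrays, the difference was -0.56 ± 0.29 (SE; limma unadjusted p of 0.0969), and without KO replicate 2 it was -0.87. Ifit2, whose protein binds viral RNA and favours apoptosis, was at 7.33, 7.69 and 7.52 in KO and at 8.25, 7.94 and 7.45 in WT. The groups overlapped through WT replicate 3, and the difference of -0.37 ± 0.22 (SE; limma unadjusted p of 0.148) was -0.18 without WT replicate 1.

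In the remaining effectors the KO and WT arrays overlapped. Eif2ak2 encodes PKR, the kinase that stops translation on double-stranded RNA, and differed by -0.22, or -0.25 in its dimmer probe set, in which KO and WT arrays did not overlap. It was at 6.28, 6.70 and 6.71 on the KO arrays and at 7.31, 6.72 and 6.34 on the WT arrays, so WT replicate 1 was the highest. Oas3, a synthase of the 2-5A messenger that activates RNase L, differed by -0.25 ± 0.21 (SE) and by -0.04 without WT replicate 1. Adar, the enzyme that edits adenosine to inosine in double-stranded RNA, spanned 0.35 over the 6 arrays and differed by 0.04. Ifit1, Ifit3, Oas1a, Oas2, Oasl1 and Rsad2 differed by between -0.14 and 0.15 and are described with the replicate 1 arrays.

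In the ISG15 and ubiquitin system, KO and WT arrays overlapped in the brightest probe sets of the 3 tested members. Usp18 removes ISG15 from proteins and blocks the interferon receptor, and was at 10.33, 9.14 and 8.81 on the KO arrays and at 9.28, 8.98 and 9.07 on the WT arrays. KO replicate 1 stood above the other 5 arrays. The difference was 0.32 ± 0.38 (SE), and without KO replicate 1, which stood apart in the Tfrc control, it was -0.13. The part of RNA quality in this was not tested. Trim25, the ubiquitin ligase of the RIG-I pathway, spanned 0.20 over the arrays and differed by 0.08 ± 0.11 (SE), with dimmer probe sets at 0.12 and 0.0064. In the dimmer probe set at 0.12 every KO array lay above every WT array. Trim21, an antibody receptor inside the cell and also a ubiquitin ligase, was at 8.10, 8.71 and 8.54 in KO and at 8.53, 8.64 and 8.36 in WT. It differed by -0.06 ± 0.18 (SE; limma unadjusted p of 0.748) and its dimmer probe set by 0.04, and KO and WT arrays overlapped in both.

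Among signalling and nuclear members, Stat2 was slightly higher and Ifi35 lower in KO. Stat2 is the STAT particular to ISGF3, and was at 7.40, 7.38 and 7.26 on the KO arrays and at 7.18, 7.09 and 7.26 on the WT arrays. The groups did not overlap, but the gap was 0.0062, between both replicate 3 arrays, and the difference was 0.17 ± 0.11 (SE), or 1.13-fold (limma unadjusted p of 0.169), with a dimmer probe set at 0.02. Ifi35, a partner of the signalling protein Nmi, was at 8.25, 9.32 and 8.64 in KO and at 9.51, 9.45 and 8.68 in WT. The groups overlapped, the difference was -0.48 ± 0.33 (SE; limma unadjusted p of 0.200), and it was -0.23 without KO replicate 1 and -0.77 without KO replicate 2. Parp14, a mono-ADP-ribosyltransferase, differed by -0.10 ± 0.25 (SE) and Sp100, a nuclear body protein, by -0.00062 ± 0.17 (SE).

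The members with the widest spans over the arrays, Ifit1 and Rtp4, divided by replicate number in both genotypes. Ifit1, whose protein binds RNA that lacks the host's cap methylation, was at 6.52, 4.42 and 3.59 on the KO arrays and at 6.54, 4.45 and 3.95 on the WT arrays. Replicate 1 of each genotype was high and the other 4 arrays were low, with a span of 2.95 over the arrays, or 7.75-fold, and a KO minus WT difference of -0.14 ± 0.92 (SE; limma unadjusted p of 0.887). The 4 low values lie below 4.72, the filter's lower bound, and the span may therefore be understated. Rtp4, a chaperone of receptors and an inhibitor of viral RNA replication, had the same order, at 6.18, 4.23 and 4.06 in KO and 6.57, 4.32 and 3.93 in WT (limma unadjusted p of 0.891), while its dimmer probe set had a mean of 4.03 and differed by 0.0032. Ifit3, which stabilises IFIT1, was at 6.54, 5.09 and 5.29 in KO and at 6.74, 5.53 and 4.85 in WT (limma unadjusted p of 0.910).

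Oasl2, Oasl1, Oas2, Oas1a and Rsad2 also had both replicate 1 arrays highest, though the order of replicates 2 and 3 varied among them. Oas3 did not: it was at 6.37, 6.68 and 6.54 on the KO arrays and at 7.20, 6.65 and 6.48 on the WT arrays, with KO replicate 1 the lowest. Oasl2, an OAS-like protein, was at 4.56, 3.55 and 3.23 on the KO arrays and at 5.03, 3.71 and 3.42 on the WT arrays, and its low mean kept it from the test. Oasl1, a repressor of Irf7 translation, was at 6.36, 5.36 and 5.45 in KO and at 6.12, 5.41 and 5.63 in WT. Oas2 was at 5.43, 4.67 and 4.57 in KO and at 5.15, 4.53 and 4.85 in WT. Oas1a, which has close paralogues that the probes may also detect, was at 7.39, 7.13 and 7.06 in KO and at 7.27, 6.80 and 7.04 in WT. Rsad2 encodes viperin, an enzyme that makes a chain-terminating nucleotide, and was at 5.65, 5.31 and 5.26 in KO and at 5.85, 5.37 and 5.31 in WT. In the 5 genes other than Oas3 the span from the lowest to the highest of the 6 arrays was 0.59 (Oas1a and Rsad2) to 1.80 (Oasl2). The lower replicate 1 array and the next array below it were at 4.56 and 3.71 in Oasl2 and at 6.12 and 5.63 in Oasl1. They were at 5.15 and 4.85 in Oas2, at 7.27 and 7.13 in Oas1a and at 5.65 and 5.37 in Rsad2.

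**Figure D3:**
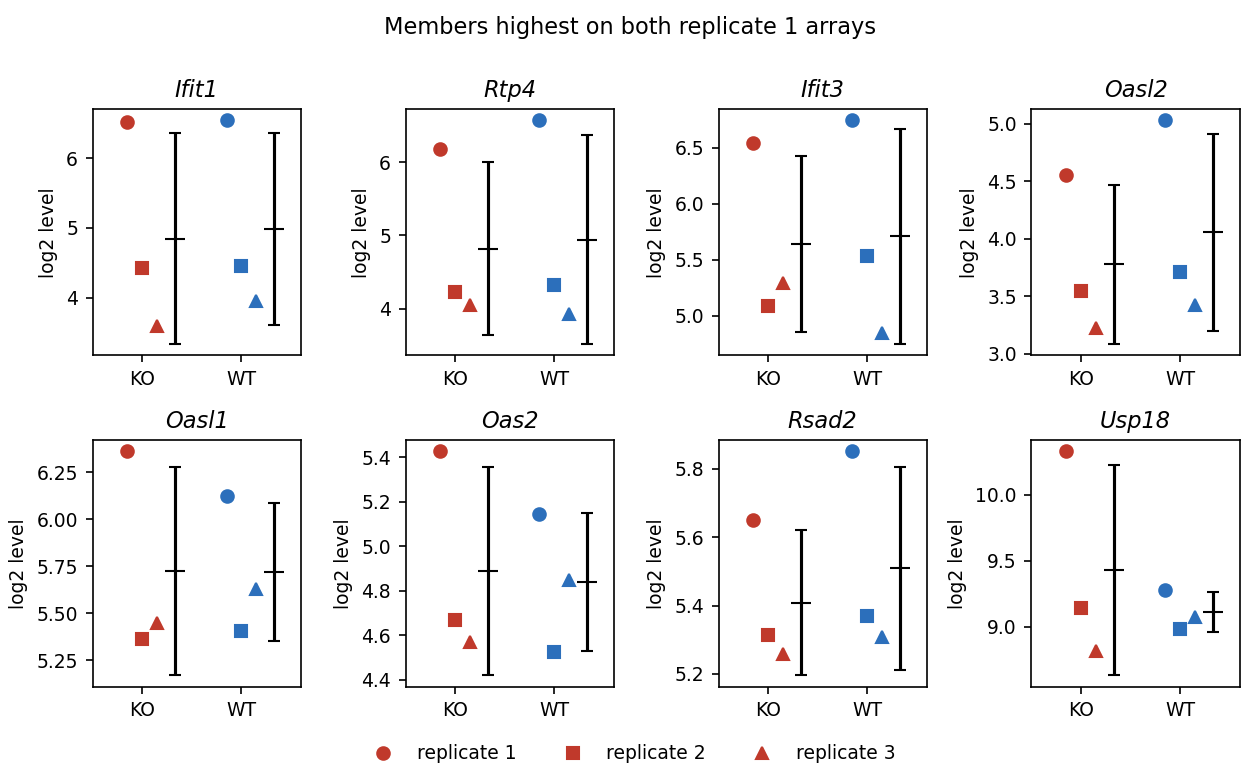
Log2 level of 8 of the 9 members that were highest on both replicate 1 arrays (circles), with the mean and SD of each genotype's 3 arrays (black). The circles of KO and WT are the top 2 points in each panel, and the genotype means lie close together beside the SDs.

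With Usp18, both replicate 1 arrays were the highest 2 of 6 in 9 of the 29 measured members (31.0%), against 6.73% of all 12393 genes, where the replicate 2 and replicate 3 arrays were so in 6.90% and 11.0%. Among tested genes they were so in 8 of 27 members (29.6%), against 7.71% of 9294, but Ifit1, Rtp4 and Oas2 passed the filter through those 2 arrays. The replicate 2 arrays were the highest 2 in 3 tested members (11.1%, against 7.16%) and the replicate 3 arrays in 1 (3.70%, against 10.5%). These counts were made after the values had been seen and have no test. The highest array was of replicate 1 in 18 of 27 members (66.7%), 9 on KO and 9 on WT, against 49.2% of all genes. It was so in 15 of 24 (62.5%) without Ifit1, Rtp4 and Oas2, and with no filter in 19 of 29 members (65.5%), against 42.9% of all 12393 genes. KO replicate 1 was also the lowest array in 7 of the 27 members, as was WT replicate 3, while WT replicate 1 was the lowest in 1. The replicate numbers come from the labels, which tie them to no shared day or litter.

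Other measures also differed among the arrays, and some but not all of them followed replicate number. The replicate 1 arrays were those with Xist and without Eif2s3y. The mean level of B cell markers, relative to the mean of the arrays, was at 0.02, 0.11 and -0.41 in KO and at 0.62, 0.24 and -0.57 in WT, and 3 of the 6 tested markers were highest on both replicate 1 arrays. Of macrophage and monocyte markers 3 of 10 measured passed the filter, all 3 higher in KO, at a mean of 0.34, -0.16 and 0.36 in KO and of -0.45, -0.23 and 0.14 in WT, and of neutrophil markers 0 of 6 passed. Dendritic cell markers (5 tested) had a mean of 0.13, -0.14 and 0.08 in KO and of 0.42, -0.32 and -0.17 in WT. In that mean the replicate 1 array was highest in each genotype, but of the 5 genes only 2, Batf3 and Ccl17, had both replicate 1 arrays highest. Markers of CD8 T cells (5 tested), NK cells (2 tested) and erythroid cells (1 tested) did not have both replicate 1 arrays highest in any gene. CD4 T cell markers were higher in KO in 9 of 11, where 4575 of all 9294 tested genes were, with a median of 0.21. At an unadjusted limma p under 0.05, 2 of the 11 were higher in KO, against 3.57% of all genes. Their mean was 0.19, -0.07 and 0.21 in KO and -0.32, -0.10 and 0.09 in WT. Of plasmacytoid dendritic cell markers, cells known for making type I interferon, 6 of 8 were tested and had a mean of 0.06, 0.06 and -0.07 in KO and 0.13, 0.05 and -0.22 in WT. The 18S ribosomal RNA control was at 11.64 and 11.70 on the replicate 2 arrays and between 9.68 and 10.09 on the others. The part of these in the result was not tested. In cultured populations, fewer cells of a type and less RNA per cell cannot be told apart.

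Of the 13 members with a response element in the promoter, 10 were measured. The element was present in 4 of 6 members with a promoter in the table that were highest on both replicate 1 arrays and in 6 of 14 of the other measured ones.

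**Figure D4:**
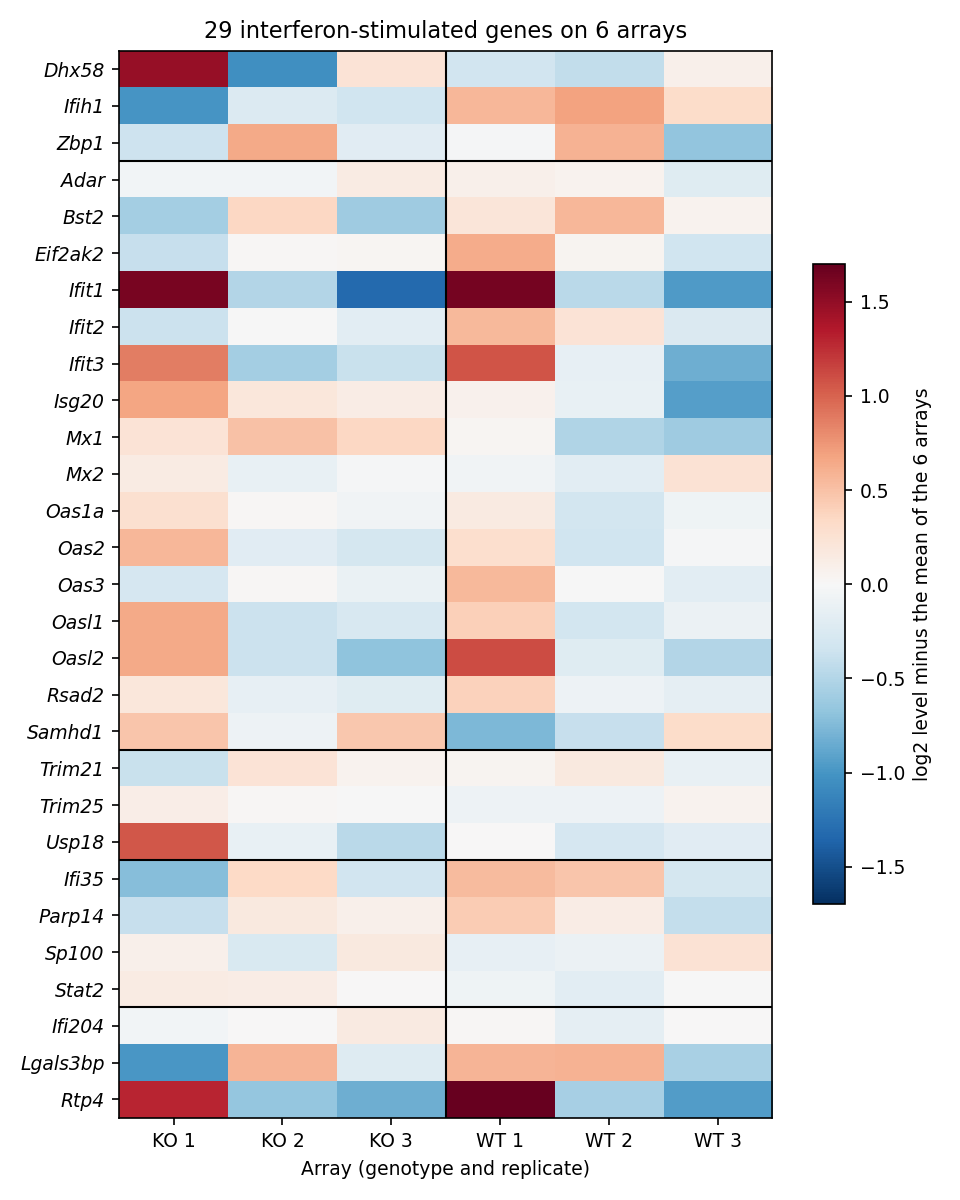
Log2 level of the 29 measured members on each array, minus the gene's mean over the 6 arrays (red high, blue low), in blocks by role from sensors (top) to other induced genes (bottom). The darkest red cells are Ifit1 and Rtp4 on both replicate 1 arrays and Dhx58 on KO replicate 1, and Ifih1 is blue on the KO arrays and red on the WT arrays.

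KO replicate 2 and WT replicates 1 and 2 were the highest 3 arrays in 7 of 27 members (25.9%), against 1775 of 9294 genes (19.1%), an order picked after the values had been seen and given with no test. Lgals3bp, a secreted glycoprotein, was at 7.50, 9.06 and 8.27 on the KO arrays and at 9.06, 9.08 and 7.94 on the WT arrays, a span of 1.58 and a difference of -0.42 ± 0.47 (SE; limma unadjusted p of 0.404). The other 6 were Ifi35, Bst2, Zbp1, Ifit2, Oas3 and Parp14, of which Parp14 was at 8.28, 8.83 and 8.75 in KO and at 9.10, 8.79 and 8.27 in WT. Ifng, the gene of interferon gamma, was at 6.32, 7.35 and 6.87 in KO and at 8.48, 8.32 and 7.23 in WT, with the same 3 arrays at the top. Its means were 6.85 ± 0.52 and 8.01 ± 0.68 (SD, n = 3), a difference of -1.17 ± 0.40 (SE; limma unadjusted p of 0.0233, adjusted p of 0.631). Of the 6 tested B cell markers, Ms4a1, Fcer2a and Cd79a had these 3 arrays highest, and Blk, Blnk and Cd79b had both replicate 1 arrays highest instead. The part of Ifng or of B cell markers in these members was not tested.

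The rest of the pathway had no adjusted limma p under 0.05 either. Of 17 tested genes of the receptor and its signalling, KO means lay above WT in 9 and below in 8, and the median difference was 0.00042. The receptor gene Ifnar1 differed by -0.01, the kinase gene Tyk2 by -0.0058, Irf9 by 0.14 and Irf7, which amplifies interferon production, by 0.22 (genes chosen for their role). Socs3, a feedback inhibitor of cytokine receptors, was the 1 gene at an unadjusted limma p under 0.05, at 11.71, 11.51 and 11.99 in KO and at 9.74, 10.29 and 11.41 in WT, without overlap. Its difference was 1.26 ± 0.41 (SE), and 0.89 without WT replicate 1. Of the interferon genes 5 of 10 measured were tested, 2 higher and 3 lower with Ifng the 1 at an unadjusted limma p under 0.05, and Ifnb1, the gene of interferon beta, was between 4.56 and 4.91 on all arrays and was below the filter. Of 8 tested genes of sensing upstream of interferon, 3 were higher and 5 lower, none at an unadjusted limma p under 0.05. The 2 with the smallest p were the kinase gene Ikbke, at 0.50 ± 0.21 (SE), and the adaptor gene Myd88, at 0.27 ± 0.16 (SE).

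A further list of 30 tested interferon-stimulated genes had 17 higher and 13 lower in KO, with a median of 0.10. Slfn8 at 0.54 ± 0.19 (SE) and Slfn1 at 0.35 ± 0.13 (SE), of the Schlafen family that restrains T cell growth and viral translation, had an unadjusted limma p under 0.05, with adjusted p of 0.631 for each. In 1 of the 30 both replicate 1 arrays were the highest 2, against 8 of the 27 members and 7.71% of all tested genes. Of the members, Ifit1, Rtp4 and Oas2 passed the filter through these arrays. Ddx60 of the further list also had them highest but was below the filter. With no filter, 9 of 29 measured members (31.0%) had both replicate 1 arrays highest, against 6.73% of all 12393 genes. Of the 36 measured genes of the further list, Tdrd7 and Ddx60 did. The contrast was thus present with and without the filter, and it was not tested. Of 15 outputs of interferon gamma, 13 were lower in KO, with a median of -0.22, and the immunoproteasome gene Psmb9 differed by -0.39 ± 0.12 (SE). In all of these lists 0 genes had an adjusted limma p under 0.05.

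**Figure D5:**
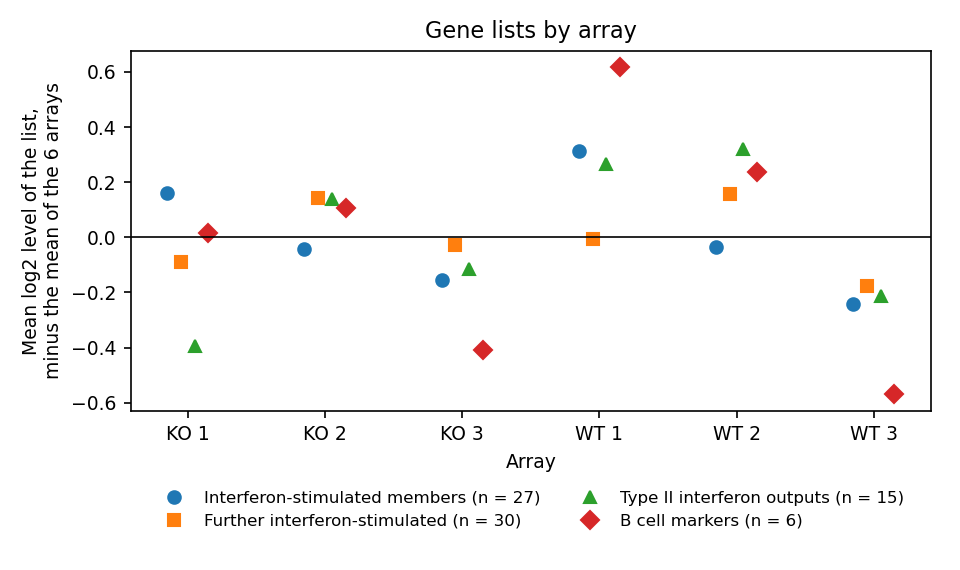
Mean log2 level of 4 gene lists on each array, minus the mean of the 6 arrays, with n the number of tested genes in the list. The interferon-stimulated members are highest on KO replicate 1 (0.16) and WT replicate 1 (0.31), or 0.04 and 0.20 without Ifit1, Rtp4 and Oas2, which passed the filter through these arrays, and the interferon gamma outputs are lowest on KO replicate 1 (-0.39).

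Per array, the mean level of the 27 members was 0.16, -0.04 and -0.15 in KO and 0.31, -0.04 and -0.24 in WT, relative to the mean of the 6 arrays. Without Ifit1, Rtp4 and Oas2 it was 0.04, 0.01 and -0.07 in KO and 0.20, 0.02 and -0.19 in WT over the other 24, so most of the value on KO replicate 1 came from those 3 genes. The array means thus spread more within each genotype than the genotypes differed. The outputs of interferon gamma were at -0.39, 0.14 and -0.12 in KO and at 0.26, 0.32 and -0.21 in WT, lowest on KO replicate 1. Ifi204, a sensor of DNA, was between 2.69 and 2.99 on all arrays, below the filter, and no difference can be read from it.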

How the data were processed

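Total RNA of 6 cultures was measured on an Affymetrix mouse array. Per the submitters' processing notes, the tools were RMA and affy (versions not stated there), and the authors deposited 1 log2 value for each probe set and array. RMA subtracts background, quantile-normalizes and summarises probe sets on the log2 scale, which compresses differences of dim genes. No detection calls were used, and precision is limited by having 3 arrays a genotype.

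Of 22690 probe sets, 20393 had 1 symbol in GEO's platform annotation, 691 several and 1606 none in the table used. Controls were left out. Each gene was represented by its brightest probe set (mean of the 6 arrays), and the dimmest 25% of genes were dropped, leaving those with a mean of 4.72 or more. The genotypes were tested with limma 3.58.1 (lmFit and eBayes, two-sided, Benjamini-Hochberg over 9294 genes) in R 4.3.3, and the code was tested on simulated data. Members with an unadjusted p under 0.05, without overlap, with the 4 smallest p in each direction, with the 6 widest ranges or with probe sets of opposite sign were given in full. From further lists, genes with an unadjusted p under 0.05 or the 2 with the smallest p were named. Mir155hg, the sex-linked and marker genes, and the pathway genes named for their role fall outside that rule. The members and lists were chosen with earlier results of these data known. Leaving out both replicate 1 or both replicate 3 arrays was added after seeing the data.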

Additional observations from a re-analysis of the deposited data

How the results depend on the processing

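No gene had an adjusted limma p under 0.05 with all arrays weighted alike, so the statements above rest on values and unadjusted p. Of the 27 tested members 10 kept their direction in every alternative run. At an unadjusted p under 0.05, leaving out each array in turn gave 275 to 1540 genes and 2 to 5 members. The 5 members came without KO replicate 2, with 1540 genes, and 4 came without WT replicate 3, with 1339 genes. Without WT replicate 1 there were 3 members and 275 genes. The median member difference ranged from -0.14 to 0.10. The count of genes was 275 without both replicate 1 arrays, 442 without both replicate 3 arrays and 1053 with each probe set on its own. Dropping the dimmest 50% of genes left 1 member. Array weights gave 3578 of 9294 genes (38.5%) and 7 of 27 members (25.9%) at an adjusted p under 0.05. Unadjusted, they gave 4712 of the 9294 genes and 9 of the 27 members.

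With the replicate number as a replicate block, 918 of 9294 genes had an unadjusted limma p under 0.05 and 0 genes an adjusted one. Of the 27 members 4 (Ifih1, Mx1, Isg20 and Bst2) had an unadjusted limma p under 0.05. Same-numbered arrays correlated at -0.04, 0.64 and 0.40 in their deviations from the genotype means, for replicates 1, 2 and 3 in turn. For KO replicates 2 and 3 the same-numbered WT array correlated highest, but KO replicate 1 correlated highest with WT replicate 3 (0.39). In Xist and Eif2s3y each KO array was closest to the WT array of its number. The numbers thus matched arrays in these transcripts, but for replicate 1 not in the correlations. The main test does not use the pairing.

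Some differences turned sign, and the cause was not tested. They were not only small ones: those of Dhx58 (0.44 in the main fit), Lgals3bp (-0.42) and Usp18 (0.32) were among them. Median centring gave Sp100 0.0062. A second quantile normalization gave Mx2 -0.011, Oasl1 -0.011 and Sp100 0.023. Array weights gave Oasl1 -0.011, Usp18 -0.11, Zbp1 -0.57 and Sp100 0.21. Without both replicate 1 arrays the values were Eif2ak2 0.18, Ifit3 0.0013, Mx2 -0.10, Oas3 0.045, Oasl1 -0.11, Trim21 0.12, Usp18 -0.049, Lgals3bp 0.16, Dhx58 -0.24 and Parp14 0.26. Without both replicate 3 arrays they were Adar -0.11, Zbp1 -0.14 and Sp100 0.035. With each array left out, Mx2 ranged from -0.088 to 0.12, Oas2 from -0.22 to 0.21, Oasl1 from -0.32 to 0.21, Trim21 from -0.19 to 0.11, Usp18 from -0.13 to 0.63, Dhx58 from -0.18 to 1.07, Parp14 from -0.32 to 0.090 and Ifit1 from -0.65 to 0.49. Ifit3 ranged from -0.52 to 0.45, Rtp4 from -0.62 to 0.26, Zbp1 from -0.25 to 0.38, Sp100 from -0.086 to 0.13, Adar from -0.051 to 0.10, Eif2ak2 from -0.45 to 0.038 and Rsad2 from -0.22 to 0.069. Signal over background limits the dim members Ifit1, Rtp4, Oas2, Oasl2 and Ifi204.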
